A study of Homo sapiens with 6 samples.

Results

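CXCL9, CXCL10 and CXCL11 encode the CXC chemokines that act through the receptor CXCR3. The 3 genes were taken as the rows of the count files whose Ensembl identifiers carry these names, out of 61541 genes listed, and each name matched a single row. They were measured in RCC4, an established line of human clear cell renal cell carcinoma, as 3 untreated cultures and 3 cultures that received 1000 U/mL interferon gamma (IFNγ) and 25 ng/mL tumour necrosis factor (TNF) for 24 h. Each biological replicate came from 3 flasks. Native poly(A) RNA was read by direct RNA nanopore sequencing, in which the pore reads the RNA strand itself and each read stands for a single molecule. RCC4 is a single tumour line in culture, and both cytokines were always given together, so the effects of IFNγ and of TNF cannot be told apart here.

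Chemokines are small secreted proteins that guide migrating leukocytes. CXCL9, CXCL10 and CXCL11 are known for recruiting activated T cells and natural killer cells, which carry CXCR3. In epithelial and endothelial cells they are classical interferon targets: IFNγ signalling acts on gamma-activated sites (GAS) and induces the transcription factor IRF1, and IRF factors bind interferon-stimulated response elements (ISRE). TNF activates NF-kappaB, whose dimers bind κB sites.

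The regulatory DNA next to the 3 genes is shown first, because all 3 genes went from no reads to expression in the treated cells. The 250 bases before each gene's start are printed 5′ to 3′ on the gene's strand (minus) from RefSeq, GRCh38.p14. They cover chr4:76007510-76007759 for CXCL9, chr4:76023498-76023747 for CXCL10 and chr4:76036071-76036320 for CXCL11. Capitals mark exact matches to the ISRE (GAAA, any 2 bases, GAAA), to GAS (TTC, any 3 bases, GAA) or to the κB consensus, searched on both strands. The κB consensus was GGGRNNYYCC, where R is A or G, Y is C or T and N is any base. Sequences that differ from a pattern by a single base were not marked. No printed match overlaps another.
CXCL9: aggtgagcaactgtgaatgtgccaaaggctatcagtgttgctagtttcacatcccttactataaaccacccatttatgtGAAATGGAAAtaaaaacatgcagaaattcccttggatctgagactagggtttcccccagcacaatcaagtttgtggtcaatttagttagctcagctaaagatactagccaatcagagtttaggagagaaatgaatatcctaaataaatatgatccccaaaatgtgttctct
CXCL10: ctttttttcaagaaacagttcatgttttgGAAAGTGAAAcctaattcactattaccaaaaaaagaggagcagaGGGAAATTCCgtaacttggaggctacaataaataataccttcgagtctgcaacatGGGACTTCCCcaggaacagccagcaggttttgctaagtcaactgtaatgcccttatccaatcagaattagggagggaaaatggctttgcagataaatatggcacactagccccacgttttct
CXCL11: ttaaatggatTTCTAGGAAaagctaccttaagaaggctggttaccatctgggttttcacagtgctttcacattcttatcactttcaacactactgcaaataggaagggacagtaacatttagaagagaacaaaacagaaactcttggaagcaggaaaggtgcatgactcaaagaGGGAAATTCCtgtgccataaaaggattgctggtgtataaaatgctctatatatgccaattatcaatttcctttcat

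Across the searched window, which runs on to 50 bases after the start, CXCL9 held 1 match and CXCL10 held 3. The match of CXCL9 was an ISRE that begins 171 bases before its start. CXCL10 had an ISRE that begins 221 bases before its start and κB matches that begin 177 and 122 bases before it. CXCL11 had a GAS match that begins 240 bases before its start, a κB match that begins 76 bases before it and a further GAS match just after the start. Of 35116 RefSeq start windows of 27305 genes, 3.57% held the ISRE, 7.66% GAS and 11.3% the κB consensus. An ISRE together with a κB match, as in CXCL10, occurred in 97 windows (0.276%). CXCL10 and CXCL11 shared a run of 13 bases that contains their κB match, AGAGGGAAATTCC, which 4 of the 35116 windows held on either strand. CXCL9 and CXCL10 shared CCAATCAGA at nearly the same distance, 64 and 66 bases before their starts, and 541 windows held it. Each run was picked as the longest that its pair shares, or the first of equal length. CXCL9 and CXCL10 also shared ATAAATATG, which is as long as CCAATCAGA. The counts include the pair's own windows. These matches describe the letters only, and binding was not measured.

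The genes lie side by side on chromosome 4 of GRCh38, all on the minus strand. CXCL9 (ENSG00000138755) spans 76001275 to 76007509, CXCL10 (ENSG00000169245) 76021118 to 76023497 and CXCL11 (ENSG00000169248) 76033682 to 76041415, within 40141 bases in all. In the annotation used for counting, the CXCL11 gene reaches further upstream than the RefSeq start used for its printed window. Their exonic lengths are 2761, 1175 and 1781 bases. No exonic base of the 3 genes is shared with another gene on either strand in the counted annotation. Their transcripts in GENCODE 29 share no stretch longer than 12 bases, so they are not near-identical copies of each other.

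Library totals ran from 3626000 to 4406296 counts, and the number of genes detected (1 count or more) from 14798 to 15604. Levels are given as CPM, the counts of a gene per 1000000 counts of its library, with library sizes scaled by the trimmed mean of M values (TMM). A count of 0 allows a level of up to 3 counts, which is 0.782, 0.772 and 0.680 CPM in untreated replicates 1, 2 and 3. This limit covers counting error only. Over all 10067 genes tested, 562 were higher (5.58%) and 257 lower (2.55%) in treated libraries by edgeR's quasi-likelihood test (Benjamini-Hochberg adjusted p below 0.05). Scaling to library totals alone gave 489 higher and 363 lower and moved the median log2 change over the tested genes from -0.03 to -0.13. Untreated replicate 3 stood apart from the other untreated libraries on the second principal component, with a score of -49.5 against 35.3 and 7.30.

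All 3 ligand genes went from no read at all to clear expression. CXCL10, also known as IP-10, had 0 counts in each untreated library and 1728, 6756 and 4596 counts in treated replicates 1, 2 and 3. These counts correspond to 497, 1518 and 1305 CPM. The groups did not overlap, which held for 25.9% of all tested genes, and replicate 1 was the lowest treated library. The treated mean was 1106 ± 539 CPM (SD, n = 3), at least 1415-fold higher than the untreated limit (adjusted p 9.56e-05, edgeR quasi-likelihood test). In bulk RNA, more cells that express a gene and more RNA per cell cannot be told apart.

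CXCL11, also known as I-TAC and known as the ligand that binds CXCR3 most tightly, had 0 counts in each untreated library. In treated replicates 1, 2 and 3 it had 136, 624 and 252 counts, or 39.1, 140 and 71.5 CPM. Replicate 2 was the highest and replicate 1 the lowest, and no treated library came near the untreated limit. The treated mean was 83.6 ± 51.6 CPM (SD, n = 3), at least 107-fold higher (edgeR adjusted p 0.000747).

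CXCL9, also known as MIG (monokine induced by gamma interferon), had 0 counts in each untreated library as well. It had 110, 282 and 228 counts in treated replicates 1, 2 and 3, or 31.6, 63.3 and 64.7 CPM. Replicates 2 and 3 were close to each other and replicate 1 was lower. The treated mean was 53.2 ± 18.7 CPM (SD, n = 3), at least 68.1-fold higher (edgeR adjusted p 0.000196).

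These 3 calls stand against a background of 5.58% of tested genes called higher. Each member passed the filter on low counts through its treated libraries alone, so the 3 calls are a description only. Of the 562 higher genes, 35 had no count in any untreated library, and none of these had a larger lower bound than CXCL10. By the same measure 7 had a larger bound than CXCL11 and 10 a larger bound than CXCL9, other ligands included. All 562 higher genes were also ranked by fold, or by lower bound where each untreated library held at most 3 counts. There CXCL10 ranked 1, CXCL11 21 and CXCL9 30. The lower bounds ran from 1183 to 1805 for CXCL10, from 72.6 to 135 for CXCL11 and from 60.8 to 81.9 for CXCL9 over 13 alternative fits, and each gene stayed past the threshold in all 13.

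**Figure D1:**
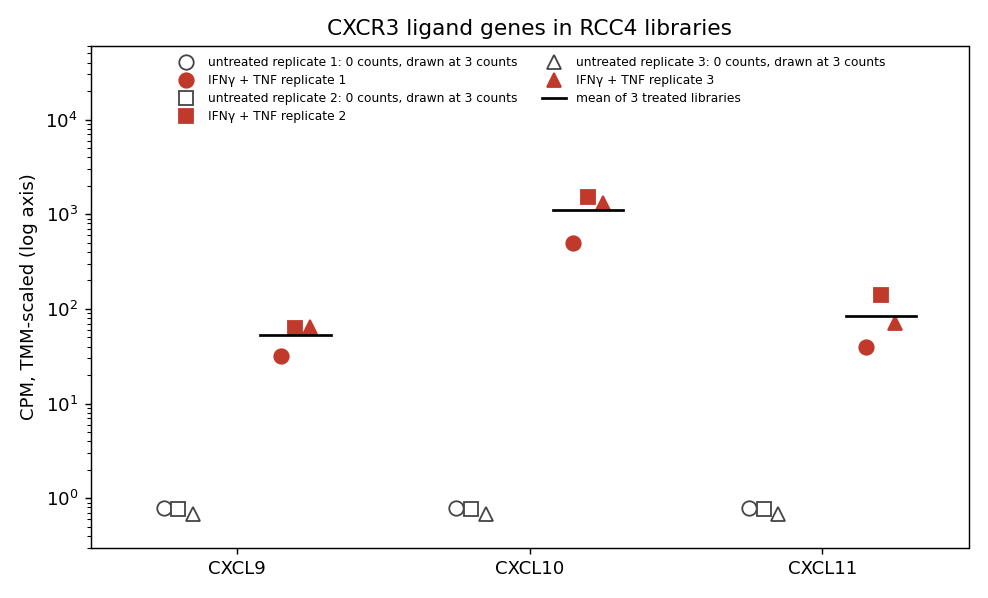
CPM (TMM-scaled, log axis) of CXCL9, CXCL10 and CXCL11 in 6 RCC4 libraries, with marker shape giving the replicate number and the black line the mean of the 3 treated libraries. Untreated libraries had 0 counts and are drawn as open symbols at the level of 3 counts, and all treated libraries (filled) lie between 31.6 and 1518 CPM.

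The summed level of the 3 ligands was 567, 1721 and 1441 CPM in treated replicates 1, 2 and 3, and 0 in each untreated library. Its treated mean was 1243 ± 602 CPM (SD, n = 3). In treated replicates 1, 2 and 3 the ligands took 0.0519%, 0.174% and 0.140% of all counts. CXCL10 ranked 75 in mean CPM per kilobase of exon among the 17319 genes detected in treated libraries, CXCL11 ranked 1048 and CXCL9 ranked 2043. By CPM without division by length they ranked 141, 1945 and 2760.

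CXCL10 made up most of the ligand reads in every treated library. Its share of the counts of the 3 genes was 87.5% (95% Clopper-Pearson interval 86.0 to 89.0) in replicate 1, 88.2% (87.4 to 88.9) in replicate 2 and 90.5% (89.7 to 91.3) in replicate 3. CXCL11 took 6.89%, 8.14% and 4.96%, and CXCL9 took 5.57%, 3.68% and 4.49%. The intervals cover counting error alone. The order CXCL10, CXCL11, CXCL9 was the same in all 3 libraries.

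**Figure D2:**
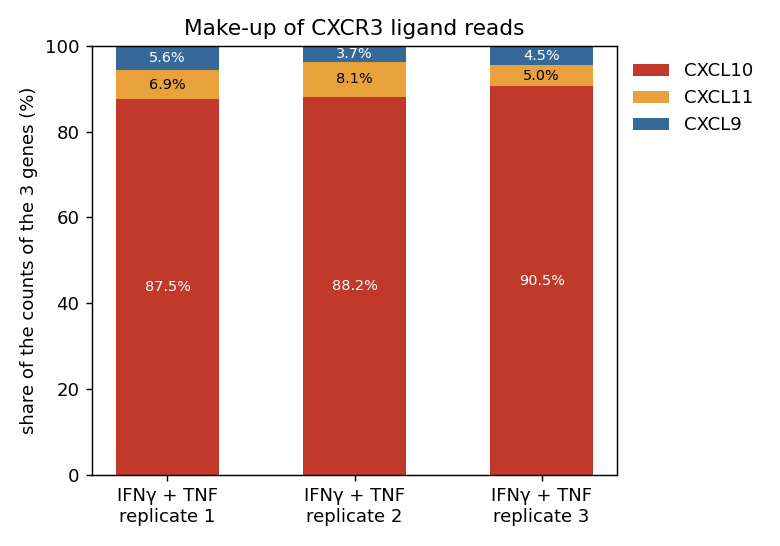
Share of the summed CXCL9, CXCL10 and CXCL11 counts (percent, bars from 0 to 100) taken by each gene in the 3 treated libraries. CXCL10 takes between 87.5% and 90.5% of the reads, and untreated libraries are left out because they hold 0 counts.

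Levels between the genes were compared per kilobase of exon. Mean levels were 942 ± 458 CPM per kilobase for CXCL10, 46.9 ± 28.98 for CXCL11 and 19.3 ± 6.78 for CXCL9 (SD, n = 3). The level per kilobase of CXCL10 was 19.3, 16.4 and 27.6 times that of CXCL11 in replicates 1, 2 and 3, and 36.9, 56.3 and 47.4 times that of CXCL9. CXCL10 was thus clear of the other two in every library. The level per kilobase of CXCL11 was 1.92, 3.43 and 1.71 times that of CXCL9. It was higher in 3 of 3 libraries, although the ranges of these genes over the libraries overlapped (21.9 to 78.7 against 11.4 to 23.4 CPM per kilobase). No test was made on 3 ratios. Reads of direct RNA start at the 3′ end and are single molecules, so counts without division by length are the more direct measure of level. Division by length raises CXCL10, which has the shortest exonic length (1175 bases), against the other ligands. By counts the ratio of CXCL10 to CXCL11 was 12.7, 10.8 and 18.2, and that of CXCL11 to CXCL9 was 1.24, 2.21 and 1.11.

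The ligands varied between the treated cultures far beyond counting error. The coefficient of variation (SD as a share of the mean) was 48.7% for CXCL10, 61.7% for CXCL11 and 35.2% for CXCL9, where counting alone would give 1.51%, 5.44% and 6.96%. Among the 483 higher genes with at least 10 CPM in treated libraries the median was 17.4%. Of these 483 genes, 27 (5.59%) varied more than CXCL10, 14 (2.90%) more than CXCL11 and 65 (13.5%) more than CXCL9. Replicate 1 was the lowest treated library for all 3 ligands, as it was for 36.5% of all tested genes and for 33.1% of the 483.

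Beside this spread stand other differences between the same libraries. On the second principal component, treated replicates 1, 2 and 3 scored 34.0, -17.9 and -9.21. The mean exonic length of genes, weighted by counts, was 4204, 4376 and 4238 bases. Their part in the spread of the ligands was not tested.

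Genes with a similar course over the treated libraries were sought among 39 others that were also higher, were at or under the limit of 3 counts in the untreated group and had a treated mean of at least 10 CPM. Likeness was the root mean square difference of log2 CPM after subtracting each gene's treated mean, over 3 libraries, as a description without a test. The gene most like CXCL10 was CASP1, an inflammatory caspase, at 0.11 log2 units, with 22, 78 and 51 counts in treated replicates 1, 2 and 3. CXCL9 (0.25) and XAF1 (0.26), an interferon-induced gene, came next. CXCL11 was most like XAF1 (0.15), which had 22, 83 and 40 counts, followed by CASP1 (0.29) and CXCL10 (0.31). CXCL9 was most like the lysosomal protease gene CTSS (0.17), with 491, 1076 and 1163 counts, then CASP1 (0.17) and the class II gene HLA-DRA (0.21). The median over the candidates was 0.72 for CXCL10, 0.87 for CXCL11 and 0.50 for CXCL9. CASP1 and XAF1 rest on few reads.

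**Figure D3:**
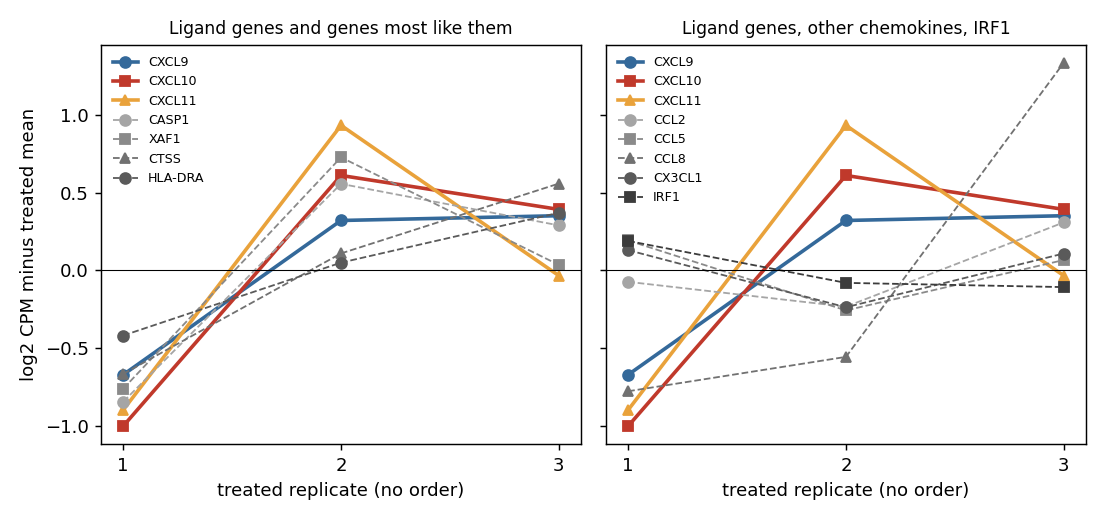
Log2 CPM minus the gene's mean over the treated libraries (vertical axis) in treated replicates 1, 2 and 3, for the ligand genes with the genes most like them (left) and with other chemokines and IRF1, picked with their values known (right). Lines join the values of a gene and stand for no order; CXCL10 lies at -1.001, 0.61 and 0.39, whereas IRF1 lies at 0.19, -0.08 and -0.11.

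Within the chemokine family, CXCL10 was the most abundant gene in treated libraries by mean CPM per kilobase. CCL2, which attracts monocytes, was second at 554 ± 110 CPM per kilobase (SD, n = 3), and its range of 465 to 677 lay inside that of CXCL10 (423 to 1292). Without division by length their treated means were nearly level, 1106 ± 539 CPM for CXCL10 and 1099.7 ± 219 CPM for CCL2. Per kilobase CCL2 was above CXCL10 in replicate 1 and below it in replicates 2 and 3, and by CPM it was above CXCL10 in replicates 1 and 3. CXCL11 and CXCL9 ranked 6 and 8 among 44 chemokine genes. CXCL11 could not be told from its neighbours in this order, CXCL5 (47.2 ± 5.55) and CCL5 (46.7 ± 7.29 CPM per kilobase), beyond its own spread. The 3 ligands held 25.0%, 52.6% and 39.6% of all chemokine counts in treated replicates 1, 2 and 3.

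Of the 39 chemokine genes other than the ligands of CXCR3, 12 were tested. In edgeR 7 were higher (background 5.58%) and 0 lower (background 2.55%), and 0 were lower at an unadjusted p under 0.05 or in DESeq2 or limma voom. CXCL2, CXCL5, CXCL16, CX3CL1, CCL2, CCL5 and CCL8 rose. Of these, CXCL2 (4, 0 and 4 untreated counts), CXCL16 (1, 2 and 3), CCL5 and CCL8 were so low in untreated libraries that they passed the filter on low counts through the treated libraries alone, so the count of 7 is a description. CX3CL1, the membrane-bound chemokine fractalkine, went from 34, 58 and 69 counts to 1179, 1169 and 1176, and its groups were far apart. CCL5, which attracts T cells, went from 0, 2 and 1 untreated counts to 276, 258 and 256 treated counts. CCL8, a monocyte chemokine, had 0 counts in each untreated library and 209, 312 and 920 treated counts, with replicate 3 highest. The 5 tested genes that did not pass were CXCL1, CXCL6, CXCL8, CCL26 and CCL28. CXCL8, the neutrophil chemokine, had 50, 99 and 15 untreated and 102, 204 and 90 treated counts (log2 change 1.28 with SE 0.56; adjusted p 0.246 in edgeR). CXCL1 was called by DESeq2 (adjusted p 0.0210), and DESeq2 called 10 of the list higher. With no filter beyond 1 count, edgeR called CXCL1 (adjusted p 0.000107) and CXCL8 (adjusted p 0.000431) as well.

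**Figure D4:**
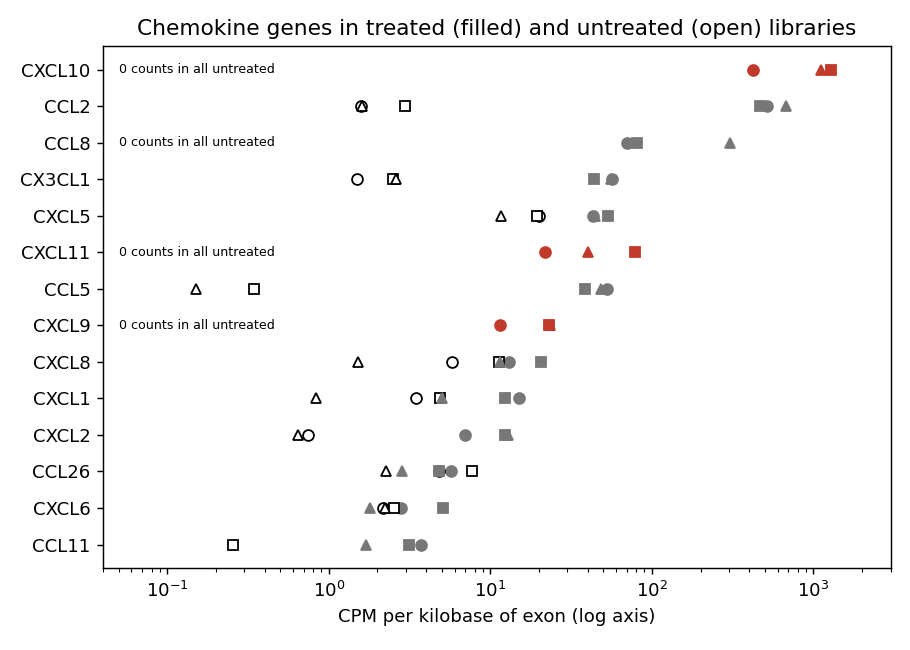
CPM per kilobase of exon (log axis) of the 14 chemokine genes with the highest treated mean, with filled symbols for treated and open symbols for untreated libraries, marker shape for the replicate number and the CXCR3 ligands in red. Single untreated values of 0 are not drawn; CXCL10 spans 423 to 1292 in treated libraries and CCL2 465 to 677.

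Among the partners of these ligands, 1 gene passed the test. The receptor CXCR3 itself had 1 count in untreated replicate 1, 1 in treated replicate 3 and 0 in the other 4 libraries. PF4 and PF4V1, platelet chemokines that also bind CXCR3, and the atypical receptor ACKR1 had 0 counts in all 6. ACKR3, an atypical receptor that binds CXCL11, had 10, 9 and 6 untreated and 4, 1 and 0 treated counts. The groups did not overlap, but the gene was too low to be tested. DPP4, the surface peptidase that trims the N-terminus of the ligands, had 5, 18 and 73 untreated and 15, 44 and 38 treated counts, with overlapping groups (log2 change 0.14 with SE 0.72; adjusted p 0.956 in edgeR).

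Syndecans and glypicans carry heparan sulfate, which holds chemokines at the cell surface. SDC2 had 454, 479 and 756 untreated and 173, 271 and 127 treated counts, without overlap. It fell from 138 ± 29.3 to 48.9 ± 12.4 CPM (SD, n = 3 each). On the log2 scale this was -1.49 with SE 0.25 (adjusted p 0.00552 in edgeR). SDC4 had 567, 524 and 844 untreated and 1030, 1078 and 771 treated counts (log2 change 0.68 with SE 0.20, adjusted p 0.0805 in edgeR). Its groups overlapped in counts but not in TMM-scaled CPM, where 25.9% of all tested genes did not overlap. Scaled to library totals alone, untreated replicate 3 lay just above treated replicate 3. SDC1 (log2 fold change -0.55, edgeR adjusted p 0.185), SDC3 (-0.18) and GPC1 (-0.60) did not pass. Of the 11 genes in this group of receptors and modifiers, 6 were tested, 1 was lower (background 2.55%) and 0 were higher (background 5.58%) in edgeR. At an unadjusted p under 0.05, 1 was higher, and DESeq2 called 1 higher and limma voom 0. The median log2 fold change was -0.37. Without untreated replicate 3, 4 were called, SDC2, SDC1 and GPC1 lower and SDC4 higher.

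The IFNγ and TNF pathways were examined through 30 genes for receptors, kinases, transcription factors and inhibitors, chosen with earlier results of these data known. Of these, 25 were tested and 15 were higher (background 5.58%). In edgeR 0 were lower (background 2.55%), also at an unadjusted p under 0.05 and in DESeq2 or limma voom. The median log2 fold change was 1.17. IRF1, a transcription factor induced by IFNγ, went from 123, 157 and 128 untreated counts to 5231, 5552 and 4312 treated counts. Its mean CPM was 33.8 ± 5.90 without and 1325 ± 155 with treatment (SD, n = 3 each; log2 change 5.29, adjusted p 3.35e-06 in edgeR). The treated libraries of IRF1 lay between 1224 and 1503 CPM, a narrower range than that of CXCL10.

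The transcription factors STAT2, STAT3 and IRF2 rose, with log2 fold changes of 2.60, 1.17 and 2.25. JAK2, the kinase bound to the IFNγ receptor, was too low to be tested, with 1, 3 and 3 untreated and 2, 20 and 15 treated counts. IRF8, IRF9, REL and TNFRSF1B were not tested either, and IRF9 had 0 counts in all libraries. Exon overlap with other annotated genes was checked for the ligand genes alone, so the 0 of IRF9 need not mean absent RNA. The receptor chains IFNGR1 (log2 fold change 0.27, edgeR adjusted p 0.838) and IFNGR2 (0.61, edgeR adjusted p 0.142) and the kinase JAK1 (-0.19, edgeR adjusted p 0.862) did not pass.

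On the TNF side, the receptor gene TNFRSF1A rose by 1.03 on the log2 scale, from 78.9 ± 6.66 to 161 ± 23.9 CPM (SD, n = 3 each). Of the NF-kappaB subunits, RELA, NFKB2 and RELB rose, with log2 fold changes of 1.63, 1.57 and 1.36. RELA had 452, 427 and 331 untreated and 1185, 1068 and 1263 treated counts. NFKB1 did not pass (log2 fold change 0.64, edgeR adjusted p 0.0682). RIPK1, an adaptor kinase of the TNF receptor, rose by 1.10 on the log2 scale (edgeR adjusted p 0.0417). The calls of RIPK1 and RELB (edgeR adjusted p 0.0429) were the weakest of the 15: RELB was lost without untreated replicate 2 (edgeR adjusted p 0.0543) or any treated library (0.0974 to 0.143), and RIPK1 without any single library other than untreated replicate 3 (0.0569 to 0.171) and with library totals alone (0.104).

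Of the inhibitors, SOCS1 and SOCS3, which restrain JAK signalling, rose, with log2 fold changes of 5.15 and 3.89. PIAS1, an inhibitor of STAT-driven transcription, did not pass, with 17, 27 and 46 untreated and 28, 26 and 24 treated counts (log2 change -0.09; adjusted p 0.947 in edgeR). USP18 had 9, 8 and 6 untreated and 239, 245 and 457 treated counts (log2 fold change 5.45). It is known as a restraint on the type I interferon receptor, not on that of IFNγ. USP18 and SOCS1 (21, 21 and 8 untreated counts) passed the filter on low counts only with the treated libraries. TNFAIP3, which encodes the ubiquitin-editing protein A20, and NFKBIA, which encodes IκBα, had log2 fold changes of 4.04 and 1.63. The genes for the added cytokines had few or no reads in these cells: IFNG had 0 counts in all 6 libraries, and TNF had 0, 2 and 0 untreated and 4, 0 and 4 treated counts.

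**Figure D5:**
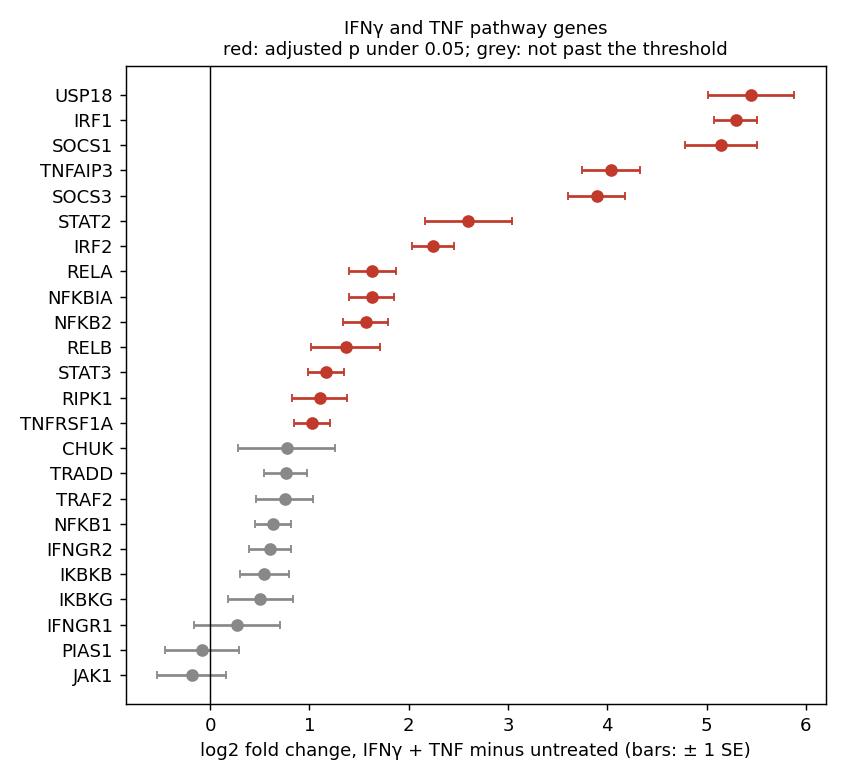
Log2 fold change between treated and untreated libraries (horizontal axis, bars ± 1 SE) of 24 of the 25 tested genes of the IFNγ and TNF pathways, red where the adjusted p in edgeR was under 0.05. The 14 drawn genes past the threshold lie between 1.03 (TNFRSF1A) and 5.45 (USP18), and the bars of IFNGR1, PIAS1 and JAK1 cross 0.

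None of the tested neighbours of the ligand genes on chromosome 4 passed the test. Of 15 other genes within 250000 bases, 7 had any count, 5 were tested and 0 were called (background 8.14% in either direction) in edgeR. At an unadjusted p under 0.05, 0 passed in edgeR or limma voom and 2 were higher in DESeq2; neither DESeq2 nor limma voom called any after adjustment. The 5 were USO1, NAAA, SDAD1, NUP54 and SCARB2, with log2 fold changes from 0.20 to 0.65. SCARB2, a lysosomal membrane protein gene, had 90, 113 and 229 untreated and 149, 217 and 256 treated counts (log2 change 0.65 with SE 0.33; adjusted p 0.328 in edgeR), and it was called without untreated replicate 3 (0.0246). NUP54, a nuclear pore gene and the tested gene nearest to CXCL11, had 33, 49 and 78 untreated and 33, 114 and 55 treated counts. ART3 runs across CXCL10 and CXCL11 on the opposite strand and had 0 counts in each untreated library and 3, 4 and 2 treated counts, too few for a fold. SDAD1-AS1, which overlaps CXCL9 on the opposite strand, had 0 counts in all 6.

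Leukocytes also make these chemokines, so their markers were read in the same libraries. Of 11 leukocyte markers, 8 had 0 counts in all 6 libraries, PTPRC, CD3D, CD68 and LYZ among them. Exon overlap of the markers with other annotated genes was not checked. The summed count of the 11 was between 0 and 1 in untreated and between 1 and 3 in treated libraries. All 4 endothelial markers were at 0. Of 5 fibroblast markers, DCN, LUM and COL1A2 were at 0, while COL1A1 (log2 fold change -0.62, edgeR adjusted p 0.231) and PDGFRB, which fell by 1.91 on the log2 scale, had counts. Of 10 renal and epithelial markers 9 had counts, with KRT8 at 1342 ± 371 CPM without and 1670 ± 439.5 CPM with treatment (SD, n = 3 each). CDH1, which encodes E-cadherin, was at 0 in all libraries. PAX8 fell by 0.79 on the log2 scale, KRT19 fell by 1.08, and VIM rose by 0.66. The part of these changes in the ligand results was not tested.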

How the data were processed

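Direct RNA libraries from RCC4 cells, 3 untreated and 3 treated with IFNγ and TNF, were grouped by their titles. Input was 500 ng of poly(A) RNA, run time 72 h, and reads above quality 7 were kept, per the labels and series text. The deposited values are raw read counts per gene, made by the authors with featureCounts 2.0.1 in long-read mode with strand setting 1 on exons of Ensembl release 105 (GRCh38), per the file headers. The submitters' processing notes name minimap2 2.24, SAMtools 1.16 and featureCounts 2.0.0. All 6 headers carry the word dmso in the alignment names, while the labels name no vehicle.

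Symbols came from a table that held 61369 of 61541 identifiers. edgeR 4.0.16 (R 4.3.3) was used with TMM on library totals, filterByExpr, the quasi-likelihood F test and Benjamini-Hochberg adjustment over all genes at 0.05, with group as the sole term; it was tested on simulated data. SE was approximated as |log2 fold change| over the root of the F statistic. A fold against a group at 0 is a lower bound against 3 counts in the untreated library where 3 counts give the highest CPM. Levels per kilobase use the exonic length in the files. Replicates are biological per the labels. Whether replicate numbers pair the libraries was not settled. The correlation of deviations over 10067 genes was 0.65, -0.0037 and 0.37 for equal numbers 1, 2 and 3. For unequal numbers it ran from -0.67 to 0.41. The main fit used no block, and the block was run as an alternative.

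The ligand genes and all lists were chosen with earlier results of these data known. Named were the ligands, the called genes of each list with the uncalled where 5 or fewer (any other was picked with its values known), and for each ligand the 3 genes most like it. Alternatives were DESeq2 size factors, library totals, 2 other filters, DESeq2 1.42.0, limma voom (limma 3.58.1), the replicate block and leaving out each library. The values of 1 pathway gene are not reported here; it remains in the counts over its list.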

Additional observations from a re-analysis of the deposited data

How the results depend on the processing

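Every call of CXCL9, CXCL10 and CXCL11 held in all 13 alternatives, with adjusted p of at most 0.00197, 0.000929 and 0.00443. The direction could not change, because every untreated library held 0 counts of these genes, so this is a description only. The lower bound rests on counts and library sizes, so the choice of test could not change it. Without 1 library each, the lower bound ran from 60.8 to 81.9 for CXCL9, from 1183 to 1805 for CXCL10 and from 72.6 to 135 for CXCL11. The summed level ran from 1025 to 1613 CPM in its 8 alternatives and the share of CXCL10 from 87.9% to 89.4% in its 3. Leaving out 1 of 3 values cannot move their mean by 1 SD, so these ranges are a description only. Without division by length the mean log2 ratio of CXCL10 to CXCL11 was 3.76 in place of 4.36, by construction.

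Over all genes, 819 calls became 1328 with no filter beyond 1 count and 1512 with the replicate number as a block; without 1 library they ran from 455 (without treated replicate 3) to 1178 (without untreated replicate 3), and were 465 without untreated replicate 2. Calls among receptors and modifiers went from 1 to 2 with that filter, 2 in DESeq2, 3 with the block and 1 to 4 without 1 library. Calls among other chemokines went from 7 to 11 with it. Among the neighbours the block gave 1 (SCARB2), and leaving out 1 library gave 0 to 1. The cause of these shifts was not tested, apart from the number of genes or libraries used. The block changed no call of a ligand gene. Whether the replicate numbers pair the libraries was not settled, and not every library correlated best with its own number. With 0 counts in untreated cells, depth limits each fold change to a lower bound.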

Other observations

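Motif matches were also counted over the start windows of all tested genes, as a description with no test. Of 11647 such windows 2.85% held the ISRE, and of 627 windows of genes called higher 13.2% did. For GAS the shares were 6.002% and 12.9%, and for the κB consensus 13.4% and 19.6%. Windows with both an ISRE and a κB match, as in CXCL10, made up 0.352% of the tested and 2.55% (16 windows) of the higher ones. A gene can have several start windows, which share sequence.

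Interferon lambda genes had few reads. IFNL1 had 0 counts in each untreated library and 0, 2 and 3 treated counts, IFNL2 had 1, 1 and 0 in treated libraries and IFNL3 had 1 in treated replicate 2. IFNB1 had 0 counts in all 6. CCL3 had 0 counts in each untreated library and 8, 4 and 17 treated counts, and CCL11 had 0, 1 and 0 untreated and 13, 14 and 6 treated counts. Both were below the filter on low counts.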
